A study of Mus musculus with 12 samples.

Results

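Transcripts of 41 proteins of blood coagulation, fibrinolysis and complement were followed in liver and lung of mice on 2 selenium diets. The genes had been listed by name, and each was read on the probe sets of the array annotated to that gene alone. Of the 41 genes, 40 had such a probe set and 39 gave a value on at least 1 array, out of 12940 genes with a value in the whole series. Plau, the urokinase plasminogen activator, was blank on all 12 arrays. Cpb2, a carboxypeptidase that slows fibrinolysis, was not analysed here. The arrays came from male wild-type FVB/N mice that received a Se-deficient torula yeast diet from weaning, with 0.1 ppm (0.1 Se) or 0 ppm (0 Se) selenium added as sodium selenite, for 6 weeks. Both diets thus share the deficient base, and the 4 groups are 0.1 Se liver, 0 Se liver, 0.1 Se lung and 0 Se lung, with 3 arrays each, described in the labels as biological replicates. The study compared the diets to see what low selenium does to gene expression in the 2 tissues.

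Clotting starts when tissue factor, a membrane protein outside the vessel lumen, binds factor VII, and it is amplified by a chain of plasma proteases that ends with thrombin cutting fibrinogen. Complement is a similar chain of plasma proteases that marks microbes and builds a pore in their membranes. Hepatocytes secrete most of these plasma proteins, whereas vessel walls and resident cells carry the receptors and brakes that act on cell surfaces. FVB/N mice are known to carry an allele of Hc, the gene of complement C5, that leaves plasma without functional C5.

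Values are log2 signals of the MAS5 algorithm, in which 1 unit is a 2-fold difference. The lowest value of the table is 6.64, a signal of 100, and a blank stands for an absent call or a lower signal, which the table does not tell apart. For a gene with too few values in a tissue to be tested, the difference is given as "at least N-fold". A blank array then counts at the lowest signal listed on it or, where higher, at the highest value listed for that gene in that tissue. An absent call may hide a still higher signal, so such bounds rest on these levels. Signals of different probe sets cannot be ranked against each other, so only differences between groups on 1 probe set were compared. Arrays of a group correlated at 0.978 or above. Of 12 hepatocyte markers (Alb, Ttr, Apob and others) 12 were listed in both liver groups, against 2 in 0.1 Se lung and 4 in 0 Se lung. The 11 lung epithelial markers with a probe set (Sftpc, Sftpb and others) gave 1 in 0.1 Se liver, 0 in 0 Se liver and 11 in each lung group. The tissue labels therefore matched their defining markers. Heart muscle markers (Myh6, Tnni3 and others) were listed on no liver array, while their summed signal ranged from 3434 to 14970 over 0.1 Se lung arrays and from 3552 to 27620 over 0 Se lung arrays. All of these are bulk tissue values, in which fewer cells of a type and less RNA per cell cannot be told apart.

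Liver held the higher signal for 30 of the 39 genes (7 tested, 23 by bounds) and lung for 9 (5 tested, 4 by bounds). Of the tested members 58.3% were higher in liver, against 44.3% of all 8228 genes tested. On listing alone, 23 of the 39 were on 6 liver and fewer than 6 lung arrays, against 711 of the 12940 genes with a value. The reverse, 6 lung and fewer than 6 liver arrays, held for 5 of the 39 and for 2772 of the 12940. Secreted proteases, inhibitors and pore proteins of plasma were on the liver side (Pros1, Tfpi and F13a1 excepted), many with no listed signal in lung, while tissue factor, thrombomodulin, the endothelial protein C receptor, von Willebrand factor and the tissue-type plasminogen activator were on the lung side. Of the 39 genes 18 (46.2%) were listed on 6 liver and 0 lung arrays, where 3.26% of the 12940 genes with a value showed that pattern. The opposite pattern, 6 lung and 0 liver arrays, was found for 0 members and for 11.5% of all genes. A further 11 members were listed on all 12 arrays.

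**Figure D1:**
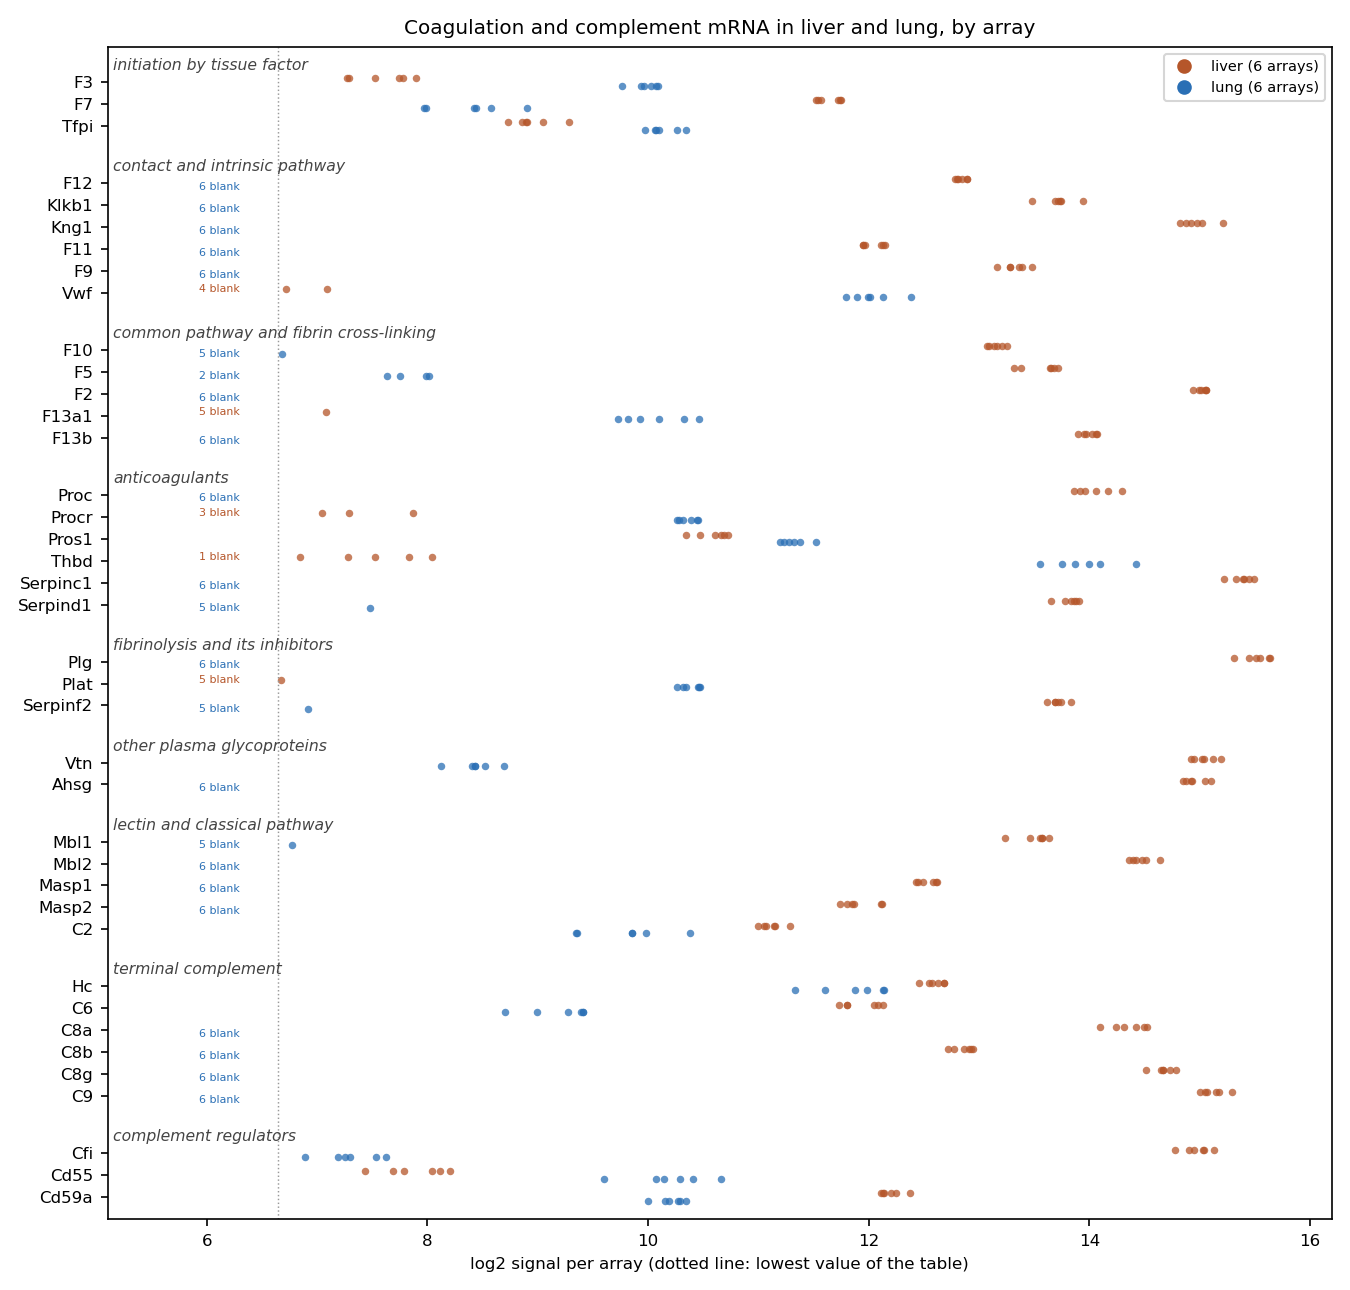
Log2 signal on each of the 12 arrays (x axis) for the 39 genes with a value, grouped by role, with liver arrays above lung arrays within each gene and the number of blank arrays at the left. Liver arrays reach 15.64 for Plg, which is blank on all 6 lung arrays, while Thbd lies between 13.55 and 14.42 in lung and at or under 8.04 in liver.

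A difference between the tissues could be tested by limma for 12 members, those with at least 2 values in each of the 4 groups. All 12 passed, 7 higher and 5 lower in liver. Over all 15112 probe sets tested, 81.6% passed (33.9% higher and 47.7% lower in liver), so that passing the test was common on these arrays. The sizes were large for the members, with a median absolute log2 difference of 2.35 against 0.78 over all 8228 genes tested on 1 probe set each. The 12 had been left by the filter on blanks and are not all members. For 23 others on the liver side the bounds ranged from at least 38.6-fold to at least 468-fold with a median of 135, and 15 of them were over 100-fold. With every blank set to the lowest value of the table, 39 members passed, 30 higher and 9 lower in liver. For a member blank on all lung arrays this makes lung a constant without spread, so its pass largely follows from the fill. This setting admits a gene with 2 values in a single group, so members enter through the tissue where they are high. No share of all probe sets is given for it, and the count is not read as a result about the members.

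**Figure D2:**
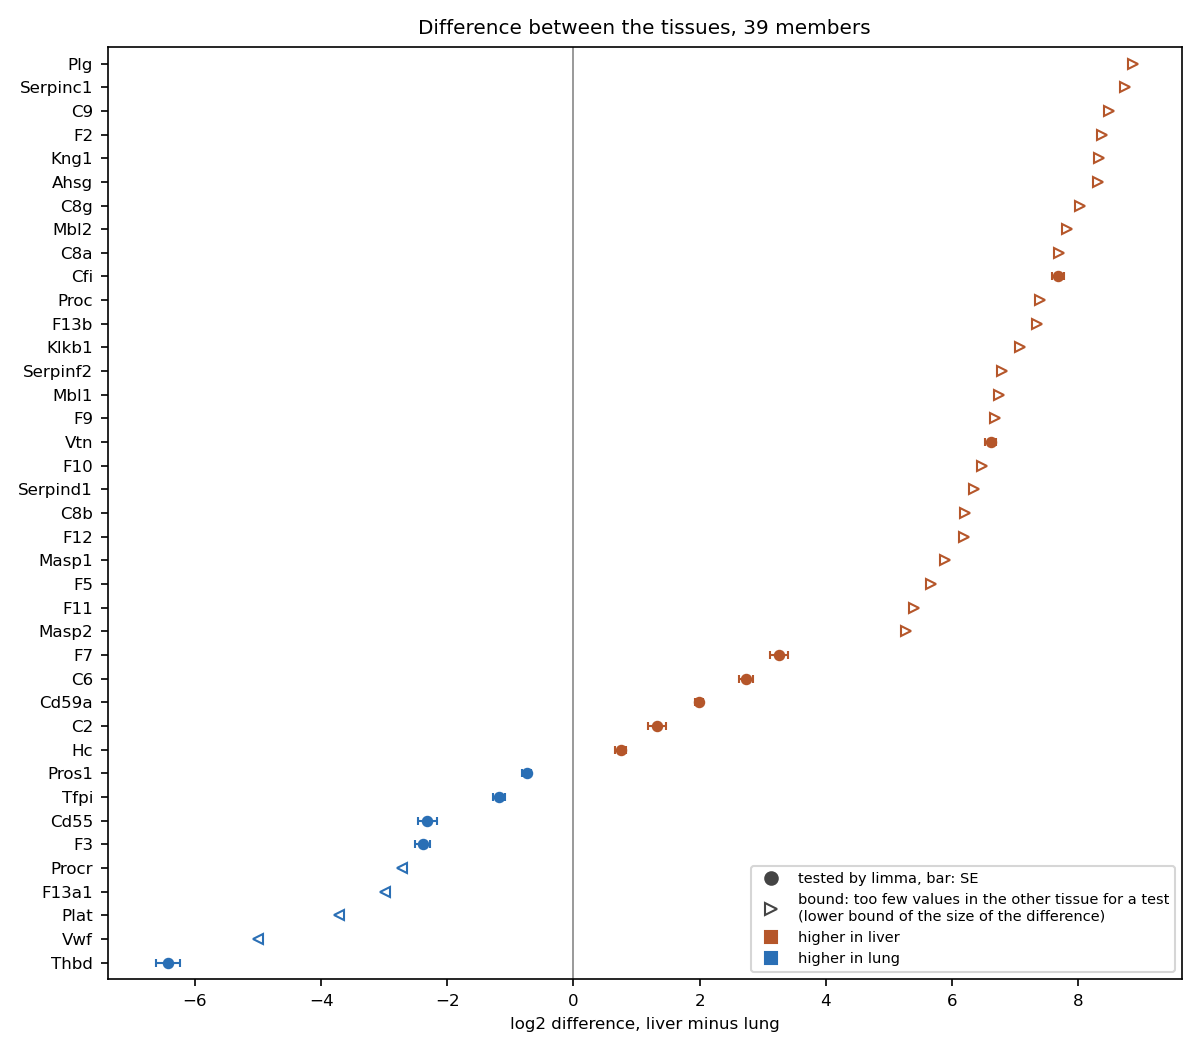
Log2 difference, liver minus lung, for 39 genes in order of size (x axis), with filled points for the limma estimate and its SE and open triangles for bounds that state the least size of a difference. The tested values run from 7.68 for Cfi to -6.42 for Thbd, and the largest bound, 8.87, is that of Plg.

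The trigger of clotting was split between the tissues. F3, tissue factor, was lower in liver. Its log2 signal had a lowest, median and highest value of 7.27, 7.63 and 7.90 over the 6 liver arrays, against a range of 9.76 to 10.09 over the 6 lung arrays (mean 9.97). The tissues did not overlap, and the difference was -2.39 ± 0.12 (SE), or 5.24-fold lower in liver (limma adjusted p = 2.53e-11). F7, the plasma protease that tissue factor activates, went the other way, with 11.52, 11.64 and 11.75 (again lowest, median and highest) in liver and 7.97, 8.43 and 8.90 in lung. It was 9.55-fold higher in liver (3.26 ± 0.14, adjusted p = 4.69e-12), and every liver array lay above every lung array. Tfpi, the inhibitor that shuts off the complex of these proteins, gave 8.73, 8.89 and 9.28 in liver and 9.97, 10.09 and 10.34 in lung. It was 2.27-fold lower in liver (-1.18 ± 0.10, adjusted p = 4.01e-08), and its 3 other probe sets differed by -1.78, -1.41 and -1.52. So the enzyme was higher in liver, and both its cellular partner and its inhibitor were lower there.

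The start region of F3 is shown because it differed from those of the liver-side genes in base composition. Promoter windows of RefSeq (build GRCm38.p6), from 250 bases before to 50 bases after the start of a transcript, were found for 31 of the 41 genes. In the F3 window (chr3:121723287-121723586, plus strand) capitals mark each CG dinucleotide.
F3: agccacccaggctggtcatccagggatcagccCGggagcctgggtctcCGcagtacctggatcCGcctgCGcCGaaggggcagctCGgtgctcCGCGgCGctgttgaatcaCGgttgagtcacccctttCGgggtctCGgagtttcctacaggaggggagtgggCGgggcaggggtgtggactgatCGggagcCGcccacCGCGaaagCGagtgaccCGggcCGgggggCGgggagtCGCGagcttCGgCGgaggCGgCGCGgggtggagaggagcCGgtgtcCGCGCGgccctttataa
It held 32 CG dinucleotides, where the median over all 32851 windows of the table was 7 and the upper quartile 20. For members with several windows, the window with the most CG was counted. On that count, the 6 members that were lower in liver had from 5 to 32 (median 12.5). The 24 that were higher in liver had from 1 to 13 (median 5). The windows left out held 3 for F13a1, 3 for Tfpi and 7 for C8g. The median over all windows takes each window singly, so it is not a like measure. These counts describe the sequence alone.

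The proteases of the contact and intrinsic pathway were all on the liver side. Kng1, high-molecular-weight kininogen, the carrier of the contact proteases, had log2 signals of 14.82, 14.95 and 15.21 (lowest, median and highest) in liver and was blank on 6 lung arrays, at least 321-fold higher in liver. Klkb1, plasma prekallikrein, had 13.48, 13.73 and 13.94 in liver and 6 blanks in lung, at least 135-fold. F9, the factor missing in haemophilia B, had 13.16, 13.32 and 13.48 in liver and 6 blanks in lung, at least 103-fold. The genes of factor XII and factor XI showed the same pattern with smaller bounds, at least 73.1-fold for F12 and at least 42.2-fold for F11. Their liver arrays stayed close together, with SDs of 0.05 for F12 and 0.10 for F11 (n = 6). Vwf, which carries factor VIII and tethers platelets, was the exception in this group. It was listed on 2 of 6 liver arrays (6.72 and 7.09), against 11.79 to 12.38 in lung (mean 12.03 ± 0.20, SD, n = 6), at least 32-fold lower in liver.

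F11 and Klkb1, which are related proteases, are neighbours on chromosome 8 with 0 protein-coding genes between them, and both were blank on every lung array. Their windows and that of F9 are printed because these 3 members of 1 pathway hold letters of liver factor sites. The letters searched, on both strands, were TTGCNNAA (a site form of C/EBP factors), CAAAGT (the core of HNF4 sites), TGTTTAC (a forkhead site form) and GTTAAT (the core of HNF1 sites), with GGGCGG (the GC box) and TATAAA (the TATA box) beside them. No one of these holds the letters of another. The window of F12, of the same pathway and also blank on every lung array, held none of them. Capitals mark matches to the C/EBP, HNF4 and forkhead letters in the windows of F9 (chrX:59999214-59999513, plus strand), F11 (chr8:45261982-45262281, minus strand) and Klkb1 (chr8:45294786-45295085, minus strand).
F9: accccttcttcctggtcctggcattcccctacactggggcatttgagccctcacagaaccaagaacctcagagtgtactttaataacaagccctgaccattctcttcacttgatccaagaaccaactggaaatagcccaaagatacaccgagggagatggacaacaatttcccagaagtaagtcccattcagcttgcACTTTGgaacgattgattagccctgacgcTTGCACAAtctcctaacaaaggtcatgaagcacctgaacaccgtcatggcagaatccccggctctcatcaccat
F11: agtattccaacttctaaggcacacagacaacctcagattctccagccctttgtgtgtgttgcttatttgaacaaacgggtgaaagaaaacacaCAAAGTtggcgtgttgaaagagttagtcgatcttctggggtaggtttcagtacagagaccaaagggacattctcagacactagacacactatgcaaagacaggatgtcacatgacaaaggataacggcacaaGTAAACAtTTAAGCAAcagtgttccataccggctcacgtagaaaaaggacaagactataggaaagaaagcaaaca
Klkb1: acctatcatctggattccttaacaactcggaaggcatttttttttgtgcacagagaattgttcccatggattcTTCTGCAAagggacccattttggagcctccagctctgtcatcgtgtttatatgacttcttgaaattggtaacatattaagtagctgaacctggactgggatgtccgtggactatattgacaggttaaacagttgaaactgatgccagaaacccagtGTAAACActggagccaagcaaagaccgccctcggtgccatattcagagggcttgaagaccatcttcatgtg
TTGCNNAA was found in the windows of 6 members among the 19 with a window that were listed on 6 liver arrays and blank on at least 1 lung array (Serpinc1, F11, Klkb1, C9, Ahsg and F9), in 1 of the 11 other members (Procr), and in 10.8% of all windows. For TGTTTAC these numbers were 2 (F11 and Klkb1), 0 and 3.65%. CAAAGT was in 6 of the 19 (F11, C9, Serpind1, Ahsg, Mbl2 and F9), 4 of the 11 (Tfpi, Procr, Vtn and F13a1) and 14.4% of all windows. GGGCGG was in 2 of the 19 (F5 and Klkb1), 4 of the 11 (Cd55, Tfpi, F3 and Pros1) and 35.7% of all windows, and TATAAA in 1 (Klkb1), 4 (Hc, Tfpi, F3 and Vtn) and 13.6%. A member with several windows (Tfpi, F13a1 and C8g) was counted when any of them held the letters. The share of all windows takes each window singly, so it is not a like measure. A match describes letters in a window and is not a binding site.

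Both proteases of the common pathway, their cofactor and a carrier subunit were higher in liver. F2, prothrombin, had 14.94, 15.03 and 15.06 in liver and 6 blanks in lung, at least 332-fold higher in liver. F13b, the carrier subunit of factor XIII, had 13.90, 14.00 and 14.07 in liver and 6 blanks in lung, at least 163-fold. F10 had 13.07, 13.15 and 13.25 in liver and was listed on 1 lung array (6.68), at least 88.8-fold higher in liver. F10 and F7 are neighbours on chromosome 8, and of this pair F7 was listed on every lung array. F5, the cofactor of factor X, was listed on 4 lung arrays (7.63 to 8.01), at least 50.7-fold higher in liver, and its second probe set differed by 5.83 ± 0.11 (limma adjusted p = 3.94e-15). F13a1, the catalytic subunit that cross-links fibrin, known from platelets and macrophages, was opposite to its carrier. It had 1 liver value (7.08) against 9.73, 10.02 and 10.46 in lung, at least 7.90-fold lower in liver. The 2 subunits of factor XIII thus had their higher signal in different tissues.

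The anticoagulants were split between the tissues. Serpinc1, antithrombin, had 15.22, 15.39 and 15.49 in liver and 6 blanks in lung, at least 426-fold higher in liver. Proc, the protease protein C, had 13.86, 14.01 and 14.30 in liver and 6 blanks in lung, at least 169-fold. Serpind1, heparin cofactor II, had 13.65, 13.84 and 13.91 in liver and 1 lung value (7.48), at least 80.8-fold. The receptors that switch protein C on at the vessel surface were lower in liver. Thbd, thrombomodulin, had 6.84, 7.52 and 8.04 over the 5 liver arrays that list it and 13.55, 13.93 and 14.42 over 6 lung arrays, 85.5-fold lower in liver over the listed values (-6.42 ± 0.19, limma adjusted p = 3.33e-13). Procr, the endothelial protein C receptor, was listed on 3 liver arrays (7.04, 7.29 and 7.87) against 10.26, 10.36 and 10.45 in lung, at least 6.58-fold lower. Pros1, protein S, the cofactor of activated protein C, showed the smallest difference of the group. Its signal was 10.58 ± 0.15 in liver and 11.32 ± 0.12 in lung (SD, n = 6), 1.67-fold lower in liver (-0.74 ± 0.07, adjusted p = 1.4e-07), with no overlap between the tissues. The plasma protease of the protein C system was therefore on the liver side and its receptors on the lung side.

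Pros1 is the other lung-side member with a window rich in CG dinucleotides (21, a number reached by 24.8% of all windows), and it is shown for comparison with F3 (chr16:62854057-62854356, plus strand, CG in capitals).
Pros1: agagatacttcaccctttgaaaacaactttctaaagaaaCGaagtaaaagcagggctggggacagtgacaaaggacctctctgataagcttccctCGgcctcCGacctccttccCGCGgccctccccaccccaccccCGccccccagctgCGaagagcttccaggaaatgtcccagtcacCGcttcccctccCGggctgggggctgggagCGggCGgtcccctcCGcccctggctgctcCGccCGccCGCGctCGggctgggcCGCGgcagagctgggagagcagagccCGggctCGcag

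Endothelial markers moved with these lung-side genes. Of 14 endothelial markers 12 could be tested and 12 were lower in liver, with a median difference of -3.66. Their summed signal ranged from 7562 to 8024 in 0.1 Se liver and from 7223 to 7932 in 0 Se liver, against 79680 to 106400 in 0.1 Se lung and 87100 to 91780 in 0 Se lung. Cdh5, which defines endothelium, had 8.66 to 9.14 in liver and 12.58 to 13.11 in lung, and Pecam1 was blank on every liver array. Markers of liver sinusoidal endothelium went the other way in sum, with 12980 to 15490 in 0.1 Se liver and 13000 to 14250 in 0 Se liver, against 5921 to 6725 in 0.1 Se lung and 4153 to 7183 in 0 Se lung. Of these 6 markers, Stab2 and Oit3 were listed in liver alone, while Lyve1 averaged 8.56 in liver and 12.30 in lung. The part of endothelial content in the differences of Thbd, Procr, Vwf, Plat and Tfpi was not tested. The platelet markers, of which 7 had a probe set, were listed more widely in lung (7 in each lung group, against 4 in 0.1 Se liver and 3 in 0 Se liver). Of the 2 platelet markers that could be tested, 1 was higher and 1 lower in liver. Macrophage and Kupffer cell markers were higher in liver in sum. They gave 23940 to 28190 in 0.1 Se liver and 17940 to 21810 in 0 Se liver. In lung they gave 10320 to 13600 in 0.1 Se and 10280 to 10870 in 0 Se. The list holds Kupffer cell genes such as Clec4f and Cd5l, which were blank on every lung array. Of the 6 markers that could be tested between the tissues, 4 passed as higher and 1 as lower in liver. Csf1r averaged 12.63 in liver and 13.06 in lung, and Cd68 8.39 and 8.67. The sum is therefore no measure of macrophage content. The part of platelets or macrophages in the difference of F13a1 was not tested.

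Plasmin formation showed the same division. Plg, plasminogen, had 15.31, 15.53 and 15.64 in liver and 6 blanks in lung, at least 468-fold higher in liver, the largest bound among the 39. Serpinf2, the plasma inhibitor of plasmin, had 13.62, 13.71 and 13.83 in liver and 1 lung value (6.92), at least 111-fold. Plat, the tissue-type activator of plasminogen, had 1 liver value (6.67) against 10.26, 10.39 and 10.47 in lung, at least 13.1-fold lower in liver. Substrate and inhibitor were thus on the liver side and the activator on the lung side. Among other plasma glycoproteins, Ahsg, fetuin-A, had 14.85, 14.93 and 15.10 in liver and 6 blanks in lung, at least 317-fold. Vtn, vitronectin, which stabilizes the inhibitor of plasminogen activators, was listed everywhere, with 14.92, 15.03 and 15.19 in liver and 8.12, 8.43 and 8.69 in lung. It was 97.4-fold higher in liver (6.61 ± 0.09, limma adjusted p = 3.01e-17), and 7.55 ± 0.10 on its second probe set.

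The recognition proteins of the lectin pathway were on the liver side. Mbl2, a mannose-binding lectin, had 14.36, 14.45 and 14.64 in liver and 6 blanks in lung, at least 227-fold higher in liver. Its relative Mbl1 had 13.24, 13.56 and 13.63 in liver and 1 lung value (6.77), at least 107-fold. The proteases that travel with these lectins followed, with at least 59.2-fold for Masp1 (12.43, 12.54 and 12.62 in liver, 6 blanks in lung) and at least 38.6-fold for Masp2. A second probe set of Masp1, ending in _s_at and so less certain in its target, was listed on 4 lung arrays and differed by 3.51 ± 0.10 (limma adjusted p = 1.21e-12), a smaller difference than the bound. C2, the protease shared by the classical and lectin pathways, was listed on all arrays, with 11.12 ± 0.10 (SD, n = 6) and at most 11.29 in liver, and 9.35, 9.85 and 10.38 in lung. It was 2.50-fold higher in liver (1.32 ± 0.14, adjusted p = 3.78e-07), and 1.64 and 1.33 on its other probe sets. This difference was smaller than the bounds of the lectins, and the tissues did not overlap. The probe set read for C2 ends in _x_at and that for Procr in _s_at, so their targets are less certain, whereas the C2 probe set that gave 1.64 has no such ending.

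The 6 genes of the membrane attack complex among the members (Hc, C6, C8a, C8b, C8g and C9) were higher in liver, by very different amounts. C9, which forms the pore, had 15.13 ± 0.10 (SD, n = 6) and at most 15.29 in liver and 6 blanks in lung, at least 357-fold higher in liver. C8g had 14.51, 14.67 and 14.79 in liver and 6 blanks in lung, at least 261-fold, and C8a had 14.10, 14.37 and 14.52 with 6 blanks in lung, at least 208-fold. C8b, the gene of the remaining C8 chain and a neighbour of C8a on chromosome 4, gave at least 74.2-fold (12.72 to 12.95 in liver). C6 was listed on all arrays with 11.73, 11.93 and 12.13 in liver and 8.70, 9.33 and 9.41 in lung, 6.68-fold higher in liver (2.74 ± 0.11, limma adjusted p = 2.91e-12). Hc had 12.46, 12.60 and 12.68 in liver and 11.33, 11.93 and 12.14 in lung, so its lung arrays lay close under the liver arrays without overlapping them. Its difference was 0.75 ± 0.09, or 1.68-fold (adjusted p = 2.59e-06). Within each diet it was 0.98 ± 0.13 in 0.1 Se mice and 0.51 ± 0.13 in 0 Se mice, where quantile normalization gave 0.18 (adjusted p = 0.246) and ended the call. The array thus listed Hc mRNA in both tissues of these mice.

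The windows of C8a (chr4:104876349-104876648, minus strand) and C8b (chr4:104766067-104766366, plus strand), a neighbouring pair on opposite strands, each hold GTTAAT or its reverse complement once, marked in capitals, and that of C9 (chr15:6445096-6445395, plus strand) holds TTGCNNAA and CAAAGT close together, also in capitals.
C8a: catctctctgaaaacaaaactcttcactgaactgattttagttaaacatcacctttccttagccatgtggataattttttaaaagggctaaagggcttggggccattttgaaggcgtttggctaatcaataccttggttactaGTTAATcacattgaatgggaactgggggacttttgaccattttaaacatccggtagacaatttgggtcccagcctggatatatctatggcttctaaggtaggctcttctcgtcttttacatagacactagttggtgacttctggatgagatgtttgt
C8b: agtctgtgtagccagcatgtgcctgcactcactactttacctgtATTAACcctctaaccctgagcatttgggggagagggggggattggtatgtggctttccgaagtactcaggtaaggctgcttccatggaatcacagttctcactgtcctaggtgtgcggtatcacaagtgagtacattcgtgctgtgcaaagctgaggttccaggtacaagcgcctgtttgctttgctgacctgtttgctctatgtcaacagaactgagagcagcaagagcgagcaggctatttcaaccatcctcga
C9: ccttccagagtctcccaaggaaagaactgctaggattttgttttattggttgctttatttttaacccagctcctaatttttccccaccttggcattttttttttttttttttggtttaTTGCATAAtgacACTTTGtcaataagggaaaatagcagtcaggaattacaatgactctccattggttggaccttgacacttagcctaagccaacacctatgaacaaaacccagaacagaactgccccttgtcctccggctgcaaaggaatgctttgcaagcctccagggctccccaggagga
GTTAAT, counted by member as the other letters were, was found for 4 of the 19 (F13b, F2, C8b and C8a), 3 of the 11 (Cd55, Hc and Vtn) and in 7.1% of all windows taken singly.

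Regulators of complement were the group with the largest tested difference. Cfi, the plasma protease that cuts C3b and C4b, had 14.78, 14.99 and 15.13 in liver and 6.89, 7.28 and 7.62 in lung. It was 204-fold higher in liver (7.68 ± 0.10, limma adjusted p = 3.17e-17). Beside these lung values, Alb, which defines hepatocytes, was listed on 3 lung arrays at 6.70 to 7.15, against 15.51 to 15.93 in liver. Cd59a, a membrane protein that blocks the pore, had 12.11, 12.17 and 12.37 in liver and 10.21 ± 0.12 (SD, n = 6) and at most 10.34 in lung, 3.98-fold higher in liver (1.99 ± 0.07, adjusted p = 4.44e-13). Its second probe set gave 1.97 ± 0.09. Cd55, which speeds the decay of the C3 convertase on cell membranes, was lower in liver, with 7.43, 7.91 and 8.20 against 9.60, 10.21 and 10.66 in lung. The difference was -2.32 ± 0.15, or 4.99-fold (adjusted p = 1.23e-09), and its other probe sets gave -1.03 ± 0.15 and -0.81 ± 0.13. The 2 membrane regulators therefore differed between the tissues in opposite directions, and for neither did the tissues overlap.

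Each of the 12 tested differences held its direction and its call in those of 26 processing alternatives that could test it. Scaling moved the reference point between tissues. The median over all probe sets tested was -0.18, and it shifted by 0.32 under quantile normalization and by 0.20 under median centring. Of all calls, 41.6% were higher in liver as deposited, 55.6% under quantile normalization and 50.8% under median centring. The smallest differences of the 12 were those of Hc and Pros1, with ranges of 0.45 to 0.98 and -0.84 to -0.54 over the alternatives.

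Other genes of the same pathways were read beside the members. Among 36 other coagulation and fibrinolysis genes, 13 of the 29 with a value were listed on 6 liver and 0 lung arrays, the fibrinogen genes Fga, Fgb and Fgg among them. Of this list 9 could be tested, and 7 were higher and 2 lower in liver. The largest were Tfpi2, a protease inhibitor (30.7-fold higher in liver, 4.94 ± 0.12), Vkorc1, the vitamin K reductase that warfarin blocks (6.89-fold, 2.79 ± 0.07), and Lman1, the cargo receptor of factors V and VIII (4.94-fold, 2.31 ± 0.06). Lower in liver were Anxa2, a cell-surface receptor for plasminogen and its activator (19.3-fold, -4.27 ± 0.16), and F2r, the thrombin receptor (5.82-fold, -2.54 ± 0.08). Of 30 other complement genes 20 had a value, and 3 of the 20 were listed on 6 liver and 0 lung arrays and 11 on all 12. Of this list 12 could be tested, and 10 were higher and 2 lower in liver. Cfb, the protease of the alternative pathway, was 32.2-fold higher in liver (5.01 ± 0.08), Colec11, a soluble lectin, 19.6-fold (4.29 ± 0.14) and Clu, clusterin, an inhibitor of the pore, 8.36-fold (3.06 ± 0.10). Cd93, a membrane glycoprotein of endothelium, was 28.9-fold lower in liver (-4.85 ± 0.08), and Cr1l, a membrane regulator, 1.13-fold lower (-0.17 ± 0.06, limma adjusted p = 0.0173). Cr1l gave 0.03 under median centring, and S100a10, a partner of Anxa2 among the 7 (0.27 ± 0.10, adjusted p = 0.0247), gave -0.18 under quantile normalization, so the direction of both turned with the scaling. The other 19 genes tested kept theirs under both scalings.

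Whether selenium changed these genes was asked within each tissue. In liver 35 members could be tested and 0 passed limma's adjusted test, where 2 of 16575 probe sets (0.0121%) passed, and 0 had an unadjusted p under 0.05, against 6.65% of all probe sets. The differences, 0.1 Se minus 0 Se, ran from -0.19 to 0.29 on the log2 scale with a median of 0.02, and 21 of the 35 lay above 0. For the 23 members that lung lists on fewer than 6 arrays they ran from -0.19 to 0.13, with SEs of 0.08 to 0.12. Of 34 members with 6 liver values, 3 had diets that did not overlap (12.2% of all probe sets), Cd59a and Pros1 higher and F11 lower in 0.1 Se liver. The methods' t-test, unadjusted, called 2 of the 35 in liver (F11 and Cd59a), against 5.94% of all probe sets, and 0 of 17 in lung, against 6.52%.

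The 4 members with the smallest p in liver are given by value. F11 had 11.95, 11.95 and 11.97 in 0.1 Se liver against 12.11, 12.15 and 12.13 in 0 Se liver, a difference of -0.17 ± 0.08 (limma adjusted p = 0.766). Its arrays were close within each diet and did not overlap. Pros1 had 10.66, 10.72 and 10.69 in 0.1 Se liver against 10.61, 10.34 and 10.47 in 0 Se liver, 0.22 ± 0.11 (adjusted p = 0.779). C8a had 14.10, 14.42 and 14.24 in 0.1 Se liver against 14.50, 14.31 and 14.52 in 0 Se liver, -0.19 ± 0.11 (adjusted p = 0.813), and here the diets overlapped. Cd59a had 12.37, 12.25 and 12.20 in 0.1 Se liver against 12.13, 12.11 and 12.14 in 0 Se liver, 0.15 ± 0.09 (adjusted p = 0.824), and 0.02 ± 0.10 on its second probe set. Genes of the acute phase, most of them for plasma proteins that hepatocytes also make, were read beside the members in these livers. Of 18 such genes (Saa1, Lcn2, Hp and others) 16 could be tested, 0 passed, and 16 of 16 were above 0 with a median of 0.34. Of all 8965 genes tested in liver on 1 probe set each, 50.2% were above 0. The list was chosen with earlier results of these data known. The study itself reported Saa1, Saa2, Lcn2 and Fgl1 among the largest rises in its liver RNA sequencing, so the list is no independent comparison. Of the 16, 9 had an unadjusted limma p under 0.05, against 6.65% of all probe sets. Hepatocyte markers gave a median of 0.10, with 10 of 12 above 0 and 0 passing. These values share the same arrays, and the difference between the lists was not tested.

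**Figure D3:**
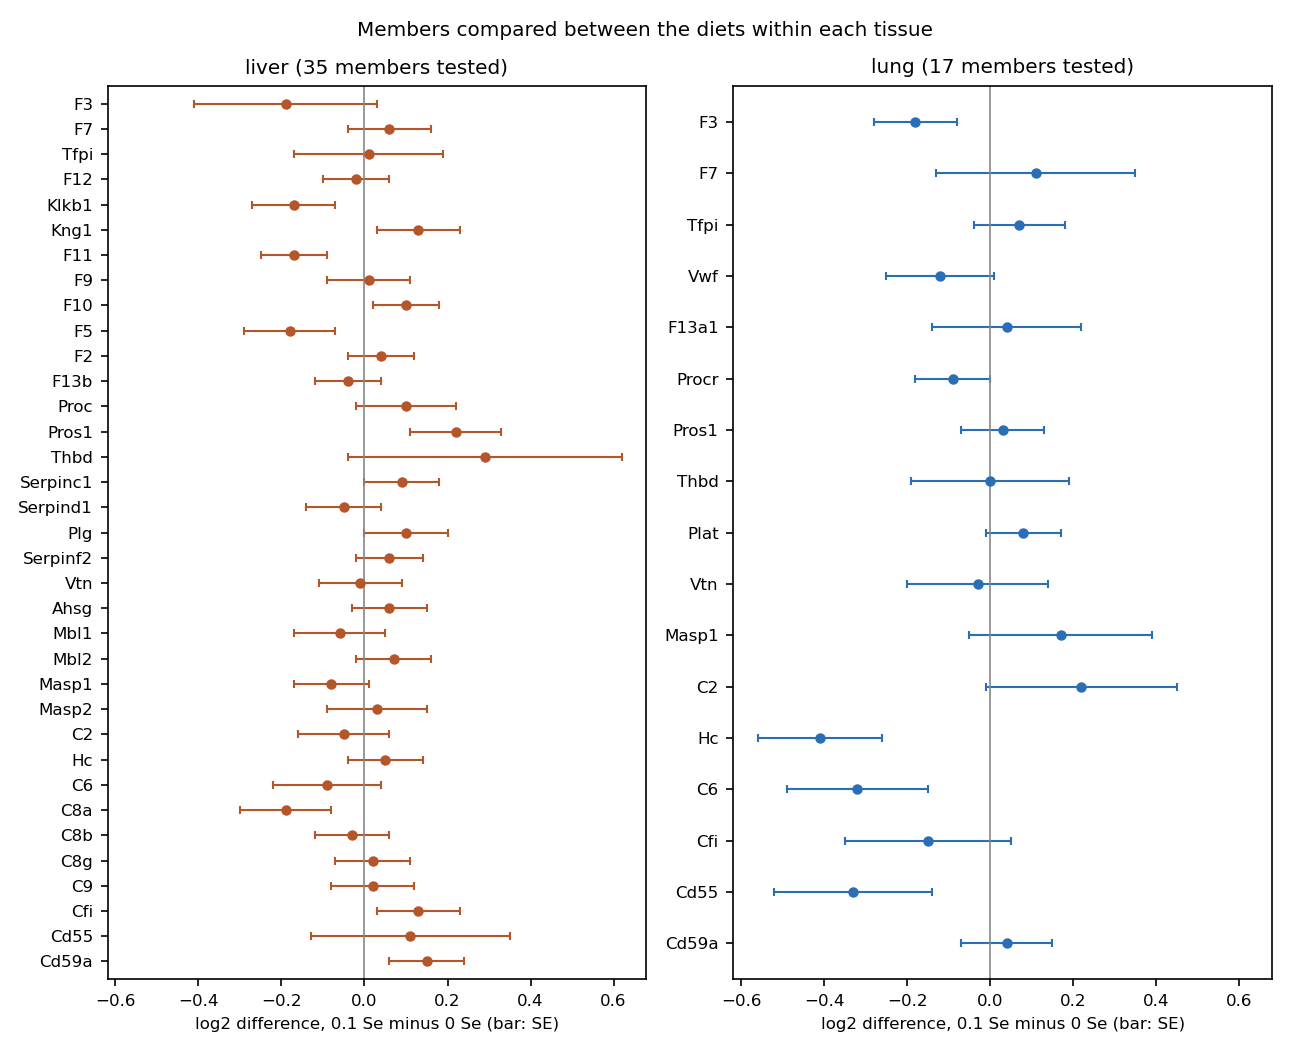
Log2 difference, 0.1 Se minus 0 Se, with its SE (x axis) for the members tested in liver (left, 35 genes) and in lung (right, 17 genes), in order of role. Liver values lie between -0.19 and 0.29 and lung values between -0.41 and 0.22, and none passed the adjusted test.

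In lung 17 members could be tested. Again 0 passed (20 of 21655 probe sets, 0.0924%), and 1 had an unadjusted p under 0.05, against 7.67% of all probe sets. The differences ran from -0.41 to 0.22 with a median of 0, and 8 of 17 lay above 0. Of 16 members with 6 lung values, 1 (F3) had diets that did not overlap, against 12.9% of all probe sets. Hc, the member with the smallest p, had 11.33, 11.98 and 11.60 in 0.1 Se lung and 12.14, 11.88 and 12.13 in 0 Se lung, a difference of -0.41 ± 0.15 (limma adjusted p = 0.526). The diets overlapped, since 0.1 Se replicate 2 lay above 0 Se replicate 2. C6, which acts after C5 in the same pore, had 9.41, 8.70 and 8.99 in 0.1 Se lung and 9.41, 9.27 and 9.39 in 0 Se lung, -0.32 ± 0.17 (adjusted p = 0.725). Cd55 had 10.41, 9.60 and 10.07 in 0.1 Se lung and 10.66, 10.14 and 10.29 in 0 Se lung, -0.33 ± 0.19 (adjusted p = 0.762), with overlap. F3 had 9.94, 9.76 and 9.96 in 0.1 Se lung and 10.07, 10.09 and 10.03 in 0 Se lung, -0.18 ± 0.10 (adjusted p = 0.75), with no overlap. Neutrophil markers had summed signals of 5069 to 19260 in 0.1 Se lung and 1591 to 4128 in 0 Se lung. Of the 6 tested, 0 passed the adjusted test and 3 had an unadjusted limma p under 0.05. Of these 6, 5 were above 0. The neutrophil marker S100a8 had 13.27, 11.15 and 11.35 in 0.1 Se lung and 10.82, 10.83 and 9.21 in 0 Se lung, with 0.1 Se replicate 1 standing highest. Another of the list, Mmp9, had 8.51, 8.45 and 7.85 in 0.1 Se lung and 8.63, 8.69 and 7.67 in 0 Se lung, and its diets overlapped. The markers' part in the members' values was not tested. Members known from endothelium differed between the diets by -0.12 ± 0.13 for Vwf, 0.00 ± 0.19 for Thbd, -0.09 ± 0.09 for Procr and 0.08 ± 0.09 for Plat.

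**Figure D4:**
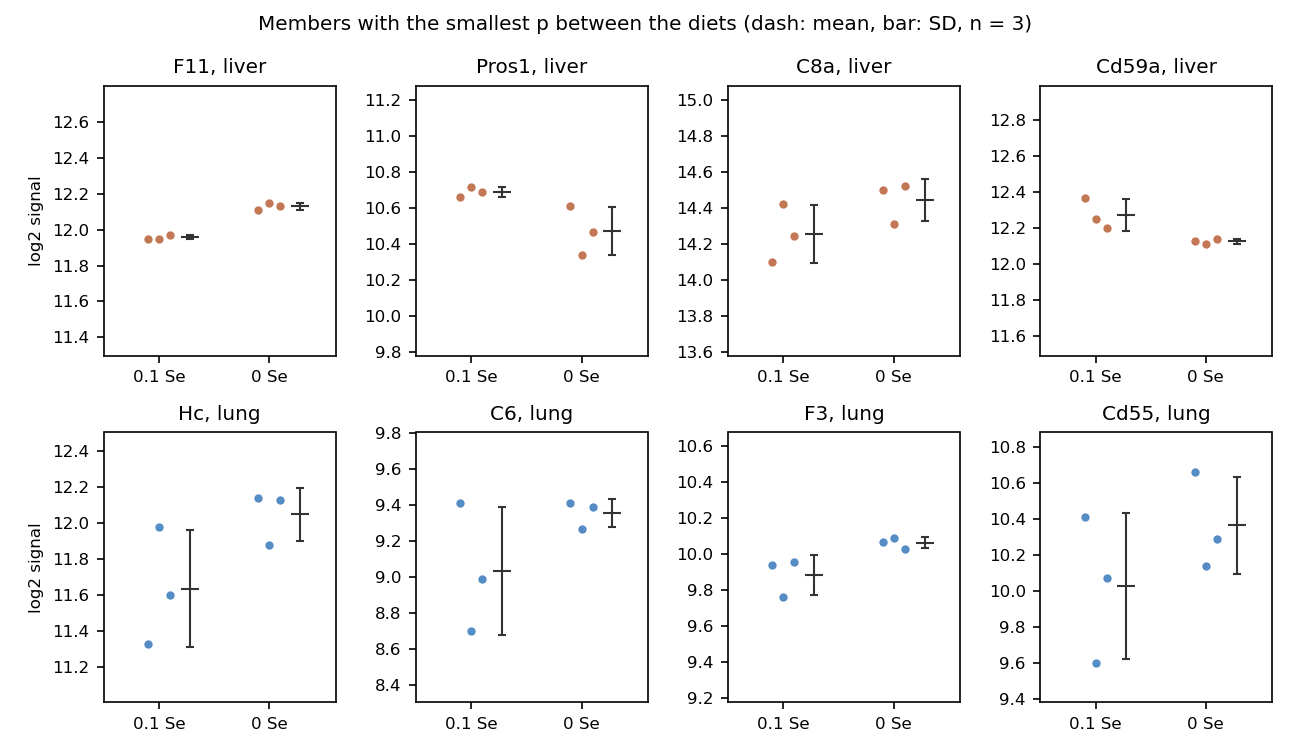
Log2 signal (y axis, each panel spanning the same number of units) on the 0.1 Se and 0 Se arrays for the 4 members with the smallest p in liver (top) and in lung (bottom), with the mean and SD of 3 arrays beside the points. F11 in liver and F3 in lung show no overlap between diets and lie lower in 0.1 Se, whereas Hc in lung overlaps with a difference of -0.41.

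The difference between the diet effects of the 2 tissues (liver minus lung) was tested for 12 members, and 0 passed, as did 0% of 15112 probe sets. Unadjusted, 1 of the 12 had a p under 0.05, against 6.16% of all probe sets. It was Hc, with 0.05 ± 0.09 in liver and -0.41 ± 0.15 in lung and an interaction of 0.47 ± 0.19 (limma adjusted p = 0.76). The largest value was that of Cd55, 0.60 ± 0.31 (adjusted p = 0.814), and 0.48 and 0.30 on its other probe sets. The smallest was -0.27 ± 0.28 for C2 (adjusted p = 0.921). A p that misses the threshold does not show that the diets gave equal levels. For most liver-side genes the SEs between the diets in liver were 0.08 to 0.12. These understate the difference that would pass the adjusted test. F11, for one, differed by -0.17 ± 0.08 in liver with a limma adjusted p of 0.766.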

How the data were processed

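RNA of liver and lung from male FVB/N mice on 0.1 Se or 0 Se diets was measured on 12 Affymetrix arrays, 3 per group. The authors computed signals with MAS5, scaled each array separately and excluded absent calls, using affy 1.36.0 in R 2.15.2 according to the submitters' processing notes. As deposited, the signals are on the log2 scale, for 29467 probe sets of which 58 controls were left out, and 0 columns were left without a sample. Listed probe sets numbered 17235 to 17923 per liver array and 22197 to 22718 per lung array. MAS5 scaling of each array alone does not equalize tissues with different RNA make-up, and the number of arrays limits the precision.

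Each gene was read on the brightest of its probe sets by mean signal, over the 12 arrays between tissues and within the tissue between diets, with blanks at the minimum. Differences were fitted with limma 3.58.1 (lmFit, eBayes with trend) in R 4.3.3 (data.table package, version 1.17.8), on probe sets with at least 2 values in each group, and adjusted by Benjamini-Hochberg over all probe sets tested at a threshold of 0.05. The script was tested on simulated data. Gene names came from the platform annotation, sequences and neighbours from RefSeq tables (GRCm38.p6). All members were described by role. Lowest, median and highest values were given for the 3 largest tissue differences of a role and for lung-side members, and per-array values for the 4 smallest p per tissue. Up to 6 genes of each other pathway list were named (the 3 largest calls each way), and S100a10 was added after its value was seen. Members and lists were chosen with earlier results of these data known. Same-numbered arrays did not deviate together (correlations from -0.19 to 0.15), so the numbers were not used as pairs.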

Additional observations from a re-analysis of the deposited data

How the results depend on the processing

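With blanks at the lowest value, 39 members passed between the tissues (30 higher and 9 lower in liver, against 7 and 5), 39 within 0.1 Se and 39 within 0 Se, and 45 of 47 other pathway genes in place of 21 of 21. For genes blank on all arrays of a tissue these passes largely follow from the constant fill. A gene needed 2 values in a single group there, and no share of all probe sets is given, so these counts are not read as results. The other alternatives gave 11 to 14 calls, since fewer or more members could be tested. They covered filters, 2 scalings, a signal of 32 added before the logarithm, eBayes settings, array weights, the choice of probe set and each array left out in turn. Within 0 Se, Hc lost its call under quantile normalization (0.18, adjusted p = 0.246). Diet counts stayed at 0 in 23 alternatives for the difference between tissues, in 21 in lung and in 20 of 21 in liver. The exception was the methods' t-test at its unadjusted threshold with no fold threshold, added after seeing the data, which gave 2 members in liver (F11 lower and Cd59a higher in 0.1 Se, 5.94% of all probe sets) and 0 in lung (6.52%). With a 1.5-fold threshold or after Benjamini-Hochberg it gave 0 in both. With the replicate block the counts were 12 between tissues and 0 for the diets, so it changed no call. Blanks limit what can be said of lung levels of 23 liver-side genes and of liver levels of Vwf, Plat, F13a1 and Procr.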

Other observations

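Of 18 other complement genes tested between the diets in liver, 12 were above 0, with a median of 0.05, and 0 passed the adjusted test. Those named here were chosen after their values were seen. C1qc, a chain of the recognition protein of the classical pathway, had log2 signals of 10.57, 10.85 and 10.68 in 0.1 Se liver against 10.41, 9.86 and 10.01 in 0 Se liver, a difference of 0.61 ± 0.15 (limma adjusted p = 0.492). Its partner chains C1qa and C1qb differed by 0.35 ± 0.16 and 0.44 ± 0.23. Cfp, properdin, which stabilizes the alternative C3 convertase, had 9.06, 9.69 and 9.16 in 0.1 Se liver against 8.73, 8.79 and 8.69 in 0 Se liver, 0.57 ± 0.18 (adjusted p = 0.616). C1qc and Cfp did not overlap between the diets, a pattern found in 12.2% of all probe sets with 6 liver values. In the other direction, Cd46, a membrane regulator, differed by -0.33 ± 0.19 and Cfhr2 by -0.18 ± 0.09. These genes did not overlap between the diets either. Macrophages are a known source of C1q and properdin. Macrophage and Kupffer cell markers (Marco, Clec4f, Cd5l and others) had summed signals of 23940 to 28190 in 0.1 Se liver and 17940 to 21810 in 0 Se liver. Their median difference was 0.33, with 10 of 11 above 0. Of the 11, 0 passed the adjusted test and 6 had an unadjusted limma p under 0.05. The markers' part in the C1q and Cfp values was not tested.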
